A study of Mus musculus with 21 samples.

Results

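Canonical Wnt signaling ends on a small set of nuclear proteins and on the genes they control. When the pathway is off, β-catenin is phosphorylated by GSK3 in a complex built on axin and APC and is then degraded. When it is on, β-catenin accumulates, enters the nucleus and joins TCF/LEF proteins on DNA. In mouse embryonic stem cells (ESCs), TCF7L1 acts mainly as a repressor, and relief of this repression helps to hold the naive state. The 9 genes described here are the β-catenin gene *Ctnnb1*, the 4 TCF/LEF genes *Tcf7*, *Lef1*, *Tcf7l1* and *Tcf7l2*, the feedback genes *Axin2* and *Nkd1*, and the target transcription factors *Sp5* and *Cdx1*. They were chosen by name, and each symbol was matched to its Ensembl identifier in the count tables, which hold 51467 genes. Of the 9 genes, 8 were among the 14518 genes tested, and *Lef1* was too low to be.

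The cells were wild-type mouse ESCs and *Ddx6* knockout (*Ddx6* KO) ESCs. DDX6 is an RNA helicase that acts in translational repression and mRNA decapping. There were 3 wild-type cultures and 4 *Ddx6* KO cultures, 2 from each of 2 CRISPR-Cas9 clones, so the KO cultures stand for 2 clonal lines rather than 4 independent knockouts. Cells were labeled with 500 µM 4-thiouridine (4sU) for 30 min, and each RNA extract was used for a 4sU library of newly made RNA and a total RNA library, which gave 14 libraries.

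All cells, wild-type and knockout, grew in Knockout DMEM with FBS, LIF and 2i, the MEK inhibitor PD0325901 and the GSK3 inhibitor CHIR99021. GSK3 inhibition itself stabilizes β-catenin, so these values describe a pathway that was being activated by drug in every group. No culture without CHIR99021 was analysed here. The libraries held 2441639 to 3570192 counts for 4sU RNA and 5724179 to 7369651 counts for total RNA. *Ddx6* was at 314 to 363 CPM (counts scaled to a common library total) in wild-type total RNA and at 22.5 to 70.8 CPM in *Ddx6* KO total RNA. In 4sU RNA the *Ddx6* ranges overlapped, at 225 to 251 CPM in wild-type and 155 to 246 CPM in *Ddx6* KO. The summed level of 7 ESC markers in total RNA was 3130 to 3193 CPM in wild-type and 3934 to 4168 CPM in *Ddx6* KO, of which *Nanog*, on chromosome 6, went from 593 to 995 CPM on average. Marker sums are CPM of the library total, which puts *Ddx6* KO higher than the scaling used for fold changes below. For example, *Pou5f1* went from 751 to 884 CPM on average, with a fitted log2 fold change of 0.08 (edgeR, adjusted p = 0.21). In the test across all genes 3 of the 7 were higher and 1 was lower in total RNA, and 5 were higher and 2 lower in 4sU RNA. Of all tested genes, at an adjusted p under 0.05, 19.5% were higher and 31.0% lower in total RNA. For 4sU RNA the shares were 20.6% and 21.0%, and no marker list was tested against these shares. Of the primitive streak and mesoderm markers 3 were tested, and 2, *Eomes* and *Gsc*, were lower in total RNA, where the list of 6 summed to 19.4 to 26.3 CPM in wild-type and 14.6 to 18.9 CPM in *Ddx6* KO. Of the tested endoderm, trophectoderm and neural markers 1 of 2, 1 of 3 and 1 of 3 were higher in total RNA and 0 were lower. In 4sU RNA 0 of them were higher, and 1 trophectoderm marker was lower. Fibroblast markers summed to 3.14 to 5.34 CPM in wild-type and 11.3 to 13.1 CPM in *Ddx6* KO total RNA, and both of the 2 that were tested, *Col1a1* and *Thy1*, were higher. In 4sU RNA 0 of the 2 were called, and the list summed to 3.03 to 4.5 CPM in wild-type and 6.45 to 10.96 CPM in *Ddx6* KO. *Postn* was at 0 in all 14 libraries, and the part of such cells in the results was not tested.

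The members covered a wide range of levels, set here by CPM per kb of exon in wild-type cells. In 4sU RNA the order was *Ctnnb1* at 83.9 ± 10.5 CPM per kb (SD, n = 3), *Tcf7l1* at 33.0 ± 2.83, *Axin2* at 17.99 ± 2.97, *Tcf7* at 12.6 ± 0.224 and *Tcf7l2* at 3.54 ± 0.578. Below them came *Cdx1* at 2.17 ± 0.300 CPM per kb, *Sp5* at 1.44 ± 0.686, *Nkd1* at 0.771 ± 0.240 and *Lef1* at 0.315 ± 0.140. *Cdx1* and *Sp5* overlapped between cultures, as did *Sp5* and *Nkd1*, and the other neighbors in the order did not. *Ctnnb1* was thus at the 94.6th percentile of the tested genes and *Nkd1* at the 5.75th.

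In wild-type total RNA the order differed. *Ctnnb1* was at 282 ± 1.39 CPM per kb, *Tcf7* at 13.96 ± 1.21, *Tcf7l1* at 9.16 ± 0.917, *Cdx1* at 7.13 ± 0.245 and *Axin2* at 7.09 ± 0.0674. *Tcf7l2* was at 0.871 ± 0.350 CPM per kb, *Sp5* at 0.529 ± 0.311, *Nkd1* at 0.525 ± 0.0516 and *Lef1* at 0.352 ± 0.177. *Cdx1* and *Axin2* overlapped, and so did each neighboring pair from *Tcf7l2* down. In *Ddx6* KO cells *Sp5* stood above *Cdx1* in 4sU RNA, at 4.73 ± 0.925 against 2.01 ± 0.813 CPM per kb (SD, n = 4), with no overlap between their cultures.

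Fold changes below come from edgeR with trimmed mean of M-values (TMM) scaling, and values by culture and levels given beside a fold change are TMM-scaled CPM unless they are said to be CPM of the library total. Cultures are given in the order of their numbers, with clone 1 before clone 2. The scaling matters for small changes, since TMM factors were 0.923 to 0.944 in wild-type and 1.03 to 1.07 in *Ddx6* KO libraries. Scaling by library total alone moved the median log2 fold change of all tested genes from 0.00 to 0.21 in 4sU RNA and from -0.10 to 0.06 in total RNA. Calls were made at an adjusted p under 0.05 (Benjamini-Hochberg, all tested genes).

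The first comparison asked which members differed in newly made RNA between *Ddx6* KO and wild-type cells. *Sp5*, *Tcf7l2* and *Ctnnb1* were higher and *Axin2* was lower, so that 4 of 8 tested members were called, 3 up and 1 down. In bulk RNA, a change in the share of cells that express a gene and a change in RNA per cell cannot be told apart. Over all genes 20.6% were called higher and 21.0% lower. The median log2 fold change was 0.00 for the 8 members and 0.00 for all genes. With a fold change over 2 also required, 2 members remained, *Sp5* and *Tcf7l2*, against 10.9% of all genes. Cultures of the 2 genotypes did not overlap for 3 members, *Axin2*, *Sp5* and *Tcf7l2*, against 41.7% of all genes.

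**Figure D1:**
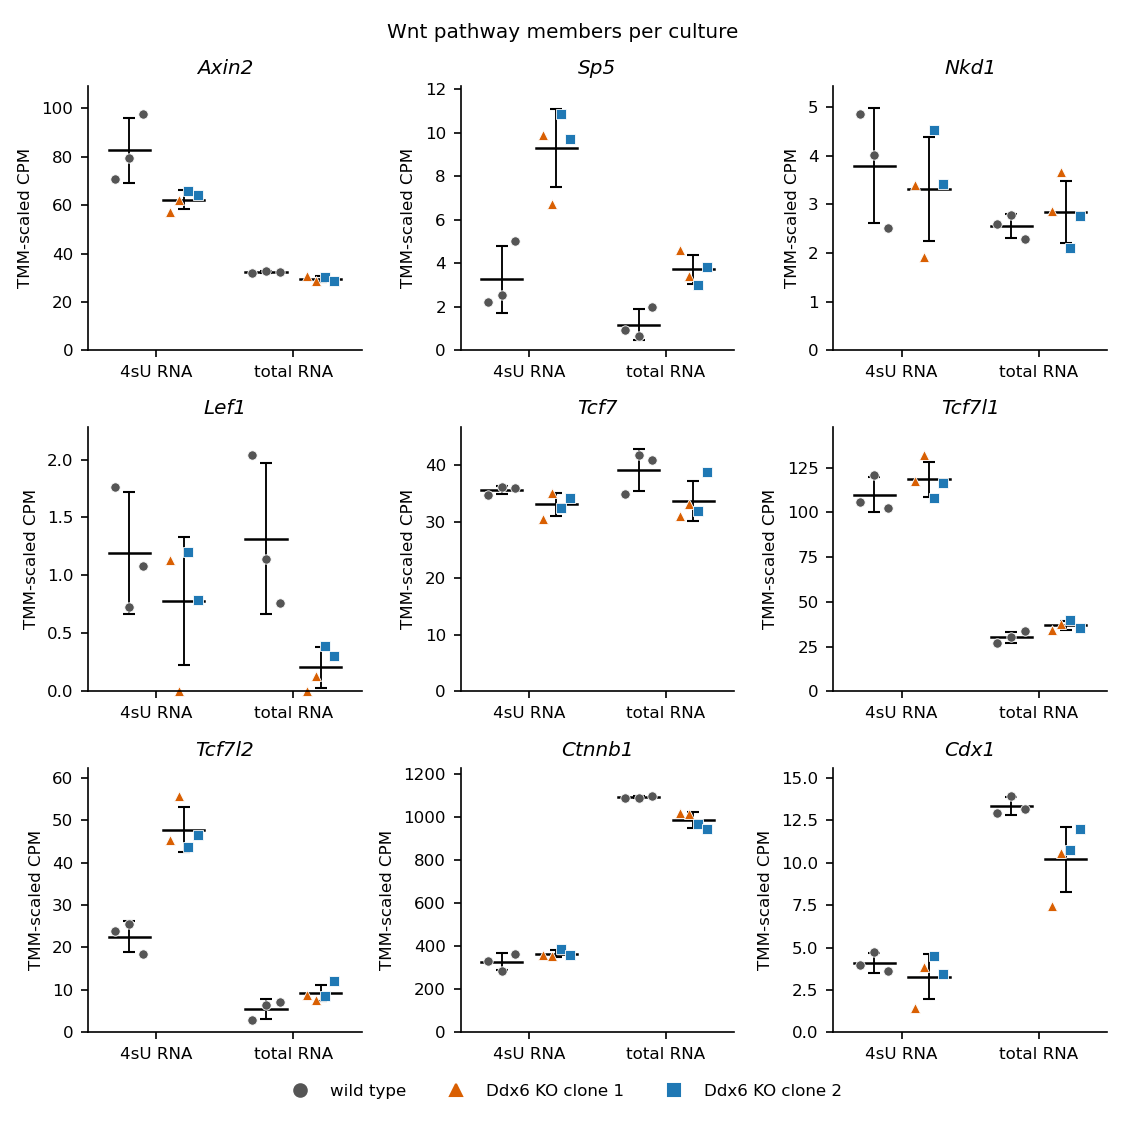
TMM-scaled CPM of the 9 members (y axes, each from 0) in 4sU and total RNA for 3 wild-type cultures and 4 *Ddx6* KO cultures, with 1 point per culture and the mean ± SD in black. *Sp5* and *Tcf7l2* lie higher in all 4 *Ddx6* KO cultures in both kinds of RNA, and *Axin2* lies lower in 4sU RNA.

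The second comparison asked the same of total RNA. *Sp5*, *Tcf7l2* and *Tcf7l1* were higher and *Tcf7* and *Ctnnb1* were lower, 5 of 8 tested members, although *Ctnnb1* turned to 0.01 with scaling by library total. Over all genes 19.5% were called higher and 31.0% lower. The median log2 fold change was 0.01 for the members and -0.10 for all genes. Only *Sp5* also passed the fold change of 2, which 10.1% of all genes passed. The genotypes did not overlap for 6 members, against 52.4% of all genes. In the calls, the higher genes *Sp5*, *Tcf7l2* and *Tcf7l1* held under DESeq2 and under each other scaling tried, whereas those of *Tcf7* and *Ctnnb1* were lost under DESeq2 and each of these scalings.

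The third comparison, total over 4sU RNA, is the study's measure of relative mRNA stability and was tested as the interaction of genotype and kind of RNA. *Ctnnb1* was lower and was the 1 member called. Over all genes 3.78% were called higher, 8.6% lower, and 1.08% in either direction with a fold change over 2. Cultures of the genotypes did not overlap for 1 member, *Ctnnb1*, against 22.9% of all genes. The median log2 change of the ratio was 0.02 for the members and -0.09 for all genes.

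**Figure D2:**
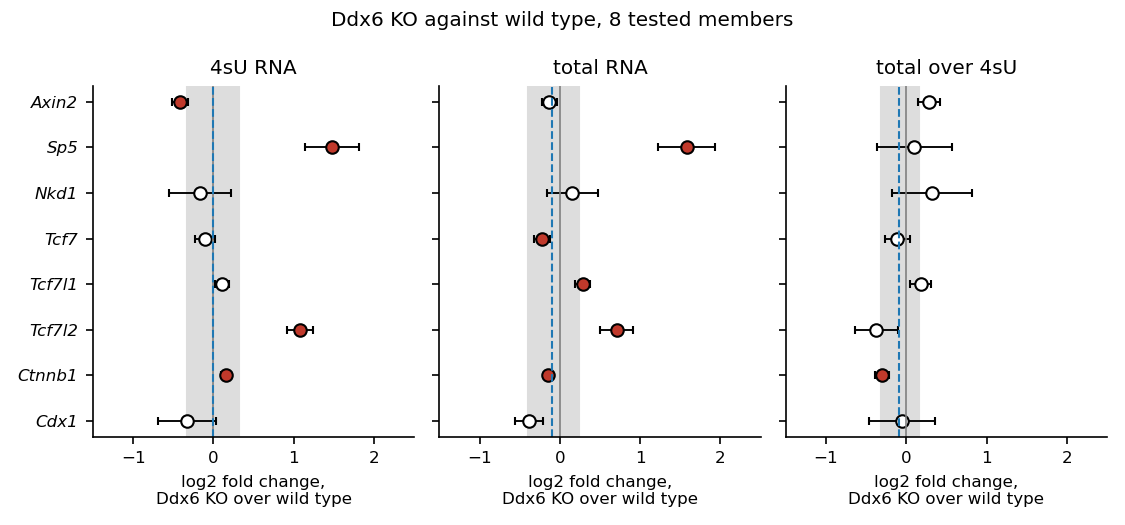
Log2 fold change of *Ddx6* KO over wild-type (x axes) ± SE for the 8 tested members in 4sU RNA, total RNA and total over 4sU. Filled points have an adjusted p under 0.05, the dashed line is the median of 14518 genes and the grey band spans their middle quartiles. *Sp5* and *Tcf7l2* lie outside the band in 4sU and total RNA, *Axin2* in 4sU RNA and *Tcf7l1* in total RNA. In total over 4sU *Axin2*, *Nkd1*, *Tcf7l1* and *Tcf7l2* lie outside it, and *Ctnnb1*, the member called, lies inside.

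*Sp5* (ENSMUSG00000075304.2, mm10 chr2:70474923-70477729, + strand) encodes a zinc finger factor of the Sp family and is a direct target of β-catenin with TCF/LEF. In 4sU RNA the wild-type cultures were at 2.20, 2.55 and 5.04 TMM-scaled CPM, and the *Ddx6* KO cultures at 9.90 and 6.71 for clone 1 and 10.8 and 9.72 for clone 2. In total RNA the wild-type cultures were at 0.926, 0.655 and 1.99, and the *Ddx6* KO cultures at 4.61, 3.40, 3.02 and 3.84. All 4 *Ddx6* KO cultures were above all 3 wild-type cultures in both kinds of RNA. The log2 fold change was 1.48 in 4sU RNA (SE 0.34, adjusted p = 0.000255) and 1.58 in total RNA (SE 0.36, adjusted p = 0.000171). These sat at the 97.3rd and 97.4th percentiles of all genes.

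The counts behind *Sp5* were small, 5, 7 and 14 in wild-type 4sU libraries and 35, 21, 36 and 37 in *Ddx6* KO ones. In total RNA they were 5, 4 and 13 against 29, 26, 23 and 25. The call was kept in all 19 alternatives that could be fitted in each comparison, where the log2 fold change was between 1.28 and 2.00 in 4sU RNA and between 1.28 and 2.20 in total RNA. Total over 4sU changed by 0.10 log2 units (SE 0.47, adjusted p = 0.93), and it ran from -0.14 to 0.37 over the alternatives.

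*Tcf7l2* (ENSMUSG00000024985.18, chr19:55741810-55933654, + strand) encodes a TCF factor that can activate or repress its targets. Wild-type cultures had 23.8, 25.5 and 18.4 TMM-scaled CPM in 4sU RNA, and the *Ddx6* KO cultures had 45.3, 55.6, 43.7 and 46.5. Wild-type total RNA was at 2.96, 6.39 and 7.19, and the *Ddx6* KO cultures at 8.75, 7.71, 8.52 and 12.1. The genotypes were far apart in 4sU RNA and touched closely without overlap in total RNA, where wild-type 1 was the low culture. This gave a log2 change of 1.08 in 4sU RNA (SE 0.16, adjusted p = 1.47e-07) and 0.71 in total RNA (SE 0.20, adjusted p = 0.00295).

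The size for *Tcf7l2* in 4sU RNA depended on the sequencing run. By CPM of each run's library total, *Tcf7l2* in the single-end run was at 20.1 ± 4.18 CPM in wild-type and 59.4 ± 7.68 CPM in *Ddx6* KO, and in the paired-end re-sequencing run at 21.7 ± 6.03 and 39.0 ± 3.58 CPM (SD, n = 3 and 4). Fitted over all cultures, the log2 change was 1.36 from the first run and 0.63 from the second, and both were called. In total RNA the call was lost without wild-type 1, at 0.43 (adjusted p = 0.0772), and with clone 1 alone, at 0.56 (adjusted p = 0.0501). Total over 4sU changed by -0.37 log2 units (SE 0.27, adjusted p = 0.41).

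*Axin2* (ENSMUSG00000000142.15, chr11:108920349-108950783, + strand) encodes a scaffold of the β-catenin destruction complex and is widely used as a readout of the pathway. The 4sU level was 70.9, 79.5 and 97.6 TMM-scaled CPM in the wild-type cultures, with the *Ddx6* KO cultures at 57.2, 62.3, 65.9 and 64.1. Its total RNA level was 31.8, 32.8 and 32.3 in wild-type, with the *Ddx6* KO cultures at 30.7, 28.5, 30.4 and 28.6. Each *Ddx6* KO culture was below each wild-type culture, with the closest pair at 65.9 and 70.9 in 4sU RNA and at 30.7 and 31.8 in total RNA. By CPM of the library total, 4sU RNA was at 76.6 ± 12.7 against 66.6 ± 3.99 and total RNA at 30.2 ± 0.287 (SD, n = 3) against 30.8 ± 1.10 (SD, n = 4), and the groups overlapped in both.

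The log2 fold change of *Axin2* was -0.41 in 4sU RNA (SE 0.10, adjusted p = 0.000352). It was called in 19 of 20 alternatives, and scaling by library total gave -0.21 (adjusted p = 0.0648). In total RNA it was -0.13 (SE 0.10, adjusted p = 0.28). Total over 4sU changed by 0.29 log2 units (SE 0.14, adjusted p = 0.18). Thus *Axin2* and *Sp5*, both targets of the pathway, were called in opposite directions in 4sU RNA.

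A stretch of 250 bases before the annotated start is shown for these 3 genes, since they had the changes in 4sU RNA for which the genotypes did not overlap. The sequences are from RefSeq (GRCm38.p6, the assembly of mm10), written 5′ to 3′ on the strand of the gene and ending at the base before the start. Capitals mark the core of the TCF/LEF site, searched on both strands as CTTTG followed by 2 bases that are each A or T.

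*Sp5* (chr2:70474673-70474922, + strand): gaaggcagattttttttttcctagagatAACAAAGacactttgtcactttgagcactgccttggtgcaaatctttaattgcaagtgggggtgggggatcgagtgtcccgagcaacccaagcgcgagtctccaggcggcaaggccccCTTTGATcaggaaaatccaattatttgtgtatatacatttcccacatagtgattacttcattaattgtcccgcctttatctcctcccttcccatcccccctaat

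*Tcf7l2* (chr19:55741560-55741809, + strand): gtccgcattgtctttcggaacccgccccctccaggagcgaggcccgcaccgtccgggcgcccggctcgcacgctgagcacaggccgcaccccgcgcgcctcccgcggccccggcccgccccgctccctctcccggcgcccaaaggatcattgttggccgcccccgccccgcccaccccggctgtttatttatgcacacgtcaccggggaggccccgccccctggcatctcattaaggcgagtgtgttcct

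*Axin2* (chr11:108920099-108920348, + strand): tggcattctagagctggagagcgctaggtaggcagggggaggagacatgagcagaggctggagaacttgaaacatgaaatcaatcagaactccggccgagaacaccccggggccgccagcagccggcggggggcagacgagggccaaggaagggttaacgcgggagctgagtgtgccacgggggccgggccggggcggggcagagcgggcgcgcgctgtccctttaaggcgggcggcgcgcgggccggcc

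The *Sp5* window held the core 2 times, with the first bases 222 and 104 bases before the start, the former on the opposite strand. The windows of *Tcf7l2* and *Axin2* shown here held none. Of 14 windows for the 8 members that matched the table, 3 held the core. These were *Sp5*, a window of *Lef1*, and a second, internal window of *Tcf7l2* with the core 14 bases before its start. Of all 32851 such windows, 14.8% held the core and 1.43% held it 2 or more times. A match describes these letters and is not a measured site, and the window says nothing of sites elsewhere.

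*Tcf7l1* (ENSMUSG00000055799.13, chr6:72626378-72789254, - strand) encodes a TCF factor that acts mainly as a repressor in ESCs. In 4sU RNA the wild-type cultures were at 106, 121 and 103 TMM-scaled CPM, and the *Ddx6* KO cultures at 117, 132, 108 and 117. In total RNA the wild-type cultures were at 27.0, 30.1 and 33.5, and the *Ddx6* KO cultures at 34.2, 37.8, 40.1 and 35.5. The genotypes overlapped in 4sU RNA, and in total RNA the *Ddx6* KO cultures were all higher, the closest pair nearly equal. The log2 fold change was 0.11 in 4sU RNA (SE 0.08, adjusted p = 0.33) and 0.28 in total RNA (SE 0.10, adjusted p = 0.0106). With scaling by library total the 4sU value was 0.31 and was called (adjusted p = 0.00163).

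The total RNA call of *Tcf7l1* was lost without wild-type 1, at 0.21 (adjusted p = 0.0987). *Tcf7l1* lies on chromosome 6, whose 735 tested genes had a median log2 fold change of 0.53 in 4sU RNA and 0.43 in total RNA. *Tcf7l1* was below both medians, at the 20.5th and 35.0th percentiles of the genes of that chromosome. The part of this shift in the *Tcf7l1* call was not tested. Total over 4sU changed by 0.18 log2 units (SE 0.13, adjusted p = 0.42).

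*Tcf7* (ENSMUSG00000000782.15, chr11:52252371-52283014, - strand) encodes TCF1, which activates targets together with β-catenin. Wild-type cultures had 34.8, 36.1 and 36.0 TMM-scaled CPM in 4sU RNA, and the *Ddx6* KO cultures had 30.6, 35.1, 32.5 and 34.2. Wild-type total RNA was at 35.0, 41.8 and 40.9, and the *Ddx6* KO cultures at 31.0, 33.1, 31.9 and 38.9. The genotypes overlapped in both kinds of RNA. This gave a log2 change of -0.11 in 4sU RNA (SE 0.12, adjusted p = 0.51) and -0.22 in total RNA (SE 0.10, adjusted p = 0.0455). The total RNA value sat at the 38.9th percentile of all genes and was -0.12 relative to their median. The call in total RNA was close to the threshold and was kept in 5 of 20 alternatives. It was lost without each of 5 cultures, all but clone 2 culture 2 and wild-type 1, at -0.21 to -0.18.

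*Lef1* (ENSMUSG00000027985.14, chr3:131110471-131224356, + strand) encodes a TCF/LEF activator that is itself a target of the pathway in many tissues. The counts were 4, 2 and 3 in wild-type and 4, 0, 4 and 3 in *Ddx6* KO 4sU libraries. In total RNA they were 11, 7 and 5 in wild-type and 0, 1, 3 and 2 in *Ddx6* KO. The genotypes overlapped in 4sU RNA and did not in total RNA, with 23 counts summed over 3 wild-type libraries and 6 over 4 *Ddx6* KO libraries. A library at 0 allows up to 3 counts, 1.02 CPM for that 4sU library and 0.497 CPM for that total RNA library.

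No library reached 3 CPM for *Lef1*, so it was not in the main test. With no filter on low counts, edgeR gave a log2 change of -2.37 in total RNA (SE 0.68, adjusted p = 0.00346) and of -0.48 in 4sU RNA (SE 0.76, adjusted p = 0.75). These rest on so few counts that the size is poorly determined, and total over 4sU was not called, at -1.89 (SE 1.02, adjusted p = 0.45). *Lef1* thus went the other way from *Tcf7l2* and *Tcf7l1* in total RNA.

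*Ctnnb1* (ENSMUSG00000006932.17, chr9:120933400-120960507, + strand) encodes β-catenin, and was the most abundant member and the most precisely measured. The 4sU level was 332, 286 and 366 TMM-scaled CPM in the wild-type cultures, with the *Ddx6* KO cultures at 357, 355, 389 and 361. Its total RNA level was 1087, 1090 and 1096 in wild-type, with the *Ddx6* KO cultures at 1017, 1014, 968 and 946. In 4sU RNA wild-type 3 lay among the *Ddx6* KO cultures, and in total RNA all 4 *Ddx6* KO cultures were lower. Fitted over all cultures, the log2 change was 0.16 in 4sU RNA (SE 0.06, adjusted p = 0.0344) and -0.15 in total RNA (SE 0.05, adjusted p = 0.0201). These sat at the 63.6th and 45.65th percentiles of all genes. The total RNA value was only -0.05 relative to the median of all genes.

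Both *Ctnnb1* changes were small, and by CPM of the library total wild-type total RNA held 1020 ± 5.02 and *Ddx6* KO total RNA 1028 ± 36.9 (SD, n = 3 and 4). Scaled that way the total RNA log2 fold change turned to 0.01 (adjusted p = 0.89). The 4sU RNA call was kept in 13 of 20 alternatives. It was lost under DESeq2, at 0.12 (adjusted p = 0.12), with RLE size factors, at 0.12 (adjusted p = 0.0965), with the re-sequencing run as the 4sU counts, at 0.16 (adjusted p = 0.11), and with clone 1 alone, at 0.14 (adjusted p = 0.14). It was also lost without wild-type 2, at 0.06 (adjusted p = 0.52), without wild-type 1, at 0.16 (adjusted p = 0.0716), and without clone 2 culture 1, at 0.14 (adjusted p = 0.10). The total RNA call was kept in 9 of 20 alternatives. It was lost under DESeq2, each other scaling and each other filter tried, and with the replicate number as a block. Clone 1 alone gave -0.08 (adjusted p = 0.31), and the call was lost there too. It was also lost without either clone 2 culture, at -0.12 in both cases (adjusted p = 0.0908 without culture 1 and 0.0672 without culture 2).

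The log2 ratio of total over 4sU RNA for *Ctnnb1* was 1.71, 1.93 and 1.58 in wild-type and 1.51, 1.51, 1.31 and 1.39 in *Ddx6* KO cultures. Every *Ddx6* KO culture was below every wild-type culture. The change of the ratio was -0.30 log2 units (SE 0.08, adjusted p = 0.00842), and it was -0.21 relative to the median of all genes. This change sat at the 25.9th percentile of all genes, inside their middle quartiles. It was called in 17 of 21 alternatives. It was lost without wild-type 2, at -0.21 (adjusted p = 0.15), without clone 2 culture 1, at -0.26 (adjusted p = 0.0586), with clone 1 alone, at -0.22 (adjusted p = 0.16), and with TMM factors set within each kind of RNA, at -0.21 (adjusted p = 0.0889).

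**Figure D3:**
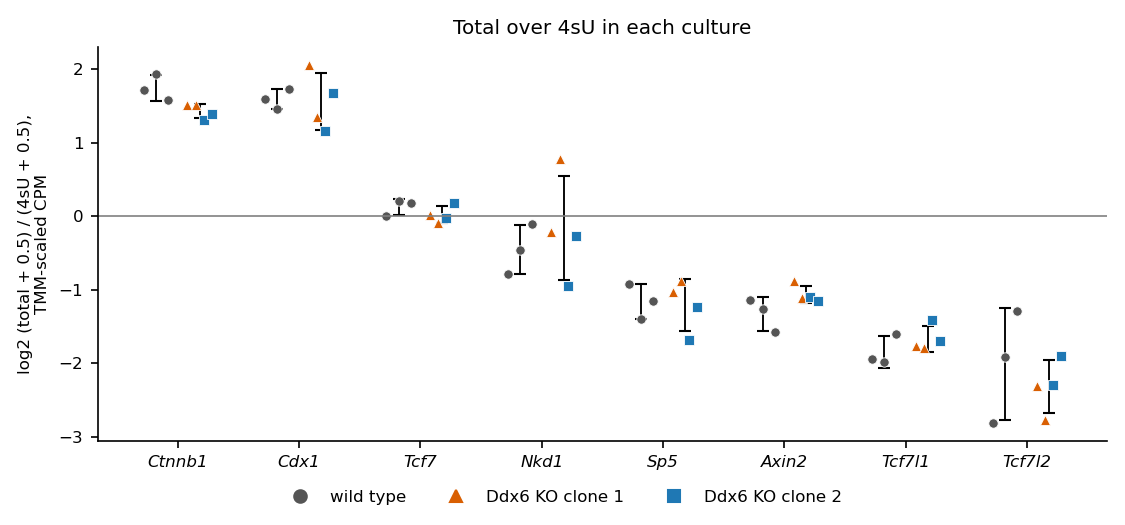
Log2 ratio of total over 4sU RNA (y axis, from TMM-scaled CPM with 0.5 added to each) for the 8 tested members in each culture, with bars for the mean ± SD. *Ctnnb1* is the member whose *Ddx6* KO cultures all lie below the wild-type cultures, and *Tcf7l2* has the widest spread among wild-type cultures.

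The members also differed among themselves in this ratio. In wild-type cells it was 1.74 ± 0.18 for *Ctnnb1* and 1.60 ± 0.14 for *Cdx1* (SD, n = 3), at the 94.8th and 92.5th percentiles of all genes. It was 0.13 ± 0.11 for *Tcf7* and -0.45 ± 0.34 for *Nkd1*. At the low end it was -1.16 ± 0.24 for *Sp5*, -1.33 ± 0.23 for *Axin2*, -1.85 ± 0.21 for *Tcf7l1* and -2.01 ± 0.76 for *Tcf7l2*. The last of these stood at the 14.01th percentile, but its wild-type cultures ran from -2.81 to -1.29. The RNAs of *Tcf7l1* and *Tcf7l2* were therefore at the low end of the ratio, and that of *Tcf7* was near the middle, at the 51.5th percentile.

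*Nkd1* (ENSMUSG00000031661.12, chr8:88521354-88594884, + strand) encodes a Dishevelled-binding inhibitor that is induced by the pathway. In 4sU RNA the wild-type cultures were at 4.85, 4.01 and 2.52 TMM-scaled CPM, and the *Ddx6* KO cultures at 3.40, 1.92, 4.52 and 3.42. In total RNA the wild-type cultures were at 2.59, 2.78 and 2.29, and the *Ddx6* KO cultures at 2.86, 3.66, 2.10 and 2.76. The genotypes overlapped in both. The log2 fold change was -0.16 in 4sU RNA (SE 0.39, adjusted p = 0.77) and 0.16 in total RNA (SE 0.32, adjusted p = 0.71). Neither was called, at 6 to 28 counts per library, and what size of change could be detected was not tested.

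*Cdx1* (ENSMUSG00000024619.8, chr18:61018862-61036199, - strand) encodes a caudal-type homeobox factor that responds to Wnt signals in the embryo and gut. Wild-type cultures had 3.97, 4.74 and 3.60 TMM-scaled CPM in 4sU RNA, and the *Ddx6* KO cultures had 1.42, 3.83, 4.52 and 3.42. Wild-type total RNA was at 12.96, 13.9 and 13.2, and the *Ddx6* KO cultures at 7.48, 10.6, 10.8 and 11.98. In total RNA all 4 *Ddx6* KO cultures were lower, with clone 1 culture 1 the lowest. The log2 fold change in total RNA was -0.38 (SE 0.17) and missed the threshold, with adjusted p = 0.0565. It passed under limma-voom, at -0.40 (adjusted p = 0.0307), without clone 2 culture 2, at -0.46 (adjusted p = 0.0336), with clone 1 alone, at -0.52 (adjusted p = 0.0300), and with the re-sequencing run as the 4sU counts, at -0.38 (adjusted p = 0.0449). Without clone 1 culture 1 it was -0.26 (adjusted p = 0.20), with clone 2 alone -0.22 (adjusted p = 0.34) and with scaling by library total -0.23 (adjusted p = 0.28). In 4sU RNA it was -0.33 (SE 0.36, adjusted p = 0.49), and -0.07 without clone 1 culture 1, and total over 4sU changed by -0.05 log2 units (SE 0.41, adjusted p = 0.96).

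The 2 *Ddx6* KO clones were also compared with each other. In this comparison 0 of 8 members were called in 4sU RNA and 0 of 8 in total RNA by edgeR, and 0 had an unadjusted p under 0.05. The lowest unadjusted p values were 0.16 in 4sU RNA, for *Tcf7l1*, and 0.16 in total RNA, for *Cdx1*. DESeq2 and limma-voom also called 0 members. Over all genes 0.172% and 0.296% were called, and 2 cultures per clone leave room for differences of moderate size.

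Around these 9 genes, 101 other genes of the pathway were sorted into 7 lists by role, and 68 of them were tested. In 4sU RNA 17 were called higher (25%, against 20.6% of all genes) and 12 lower (17.6% against 21.0%). In total RNA 20 were higher (29.4% against 19.5%) and 20 lower (29.4% against 31.0%). In total over 4sU 6 were higher (8.82% against 3.78%) and 10 lower (14.7% against 8.6%). Their median log2 fold changes were 0.04, 0.00 and 0.01, against 0.00, -0.10 and -0.09 for all genes. In each list below, the counts called stand against these same shares of all genes, and no list was tested against them. Values of the list genes come from the main fit only, and how far their small changes depend on scaling was not tested.

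Wnt ligands and their secretion factors had 21 genes, of which 6 were tested. In 4sU RNA 2 (33.3%) were higher and 0 lower, in total RNA 4 (66.7%) were higher and 1 (16.7%) lower, and in total over 4sU 1 (16.7%) was higher. *Porcn*, the acyltransferase that lipidates Wnt proteins, rose in total RNA from 6.55 ± 0.241 (SD, n = 3) to 32.7 ± 5.38 TMM-scaled CPM (SD, n = 4), a log2 change of 2.31 (SE 0.16, adjusted p = 4.44e-19). In 4sU RNA *Porcn* was at 5.01 ± 1.74 and 8.86 ± 1.41 TMM-scaled CPM, and its ratio of total over 4sU rose by 1.52 (SE 0.34, adjusted p = 0.00154). The ligands *Wnt11* and *Wnt5b* rose in total RNA by 1.28 (SE 0.38, adjusted p = 0.00356) and 1.07 (SE 0.25, adjusted p = 0.000312) on the log2 scale, from 1.39 and 3.16 TMM-scaled CPM in wild-type. *Wnt5b* lies on chromosome 6.

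Receptors and the proteins that govern their turnover had 24 genes, with 17 tested. In 4sU RNA 4 (23.5%) were higher and 5 (29.4%) lower, in total RNA 5 (29.4%) and 6 (35.3%), and in total over 4sU 1 (5.88%) and 2 (11.8%). The Frizzled receptor *Fzd4* fell from 30.9 ± 0.942 to 10.7 ± 2.13 TMM-scaled CPM in 4sU RNA, a log2 change of -1.53 (SE 0.17, adjusted p = 9.27e-11), and by 1.15 in total RNA (SE 0.17, adjusted p = 5.12e-08). *Fzd1* fell by 1.75 in 4sU RNA (SE 0.30, adjusted p = 3.27e-06) and by 1.45 in total RNA (SE 0.32, adjusted p = 0.000135). The co-receptor *Lrp6*, on chromosome 6, rose from 184 ± 4.86 to 378 ± 15.9 TMM-scaled CPM in 4sU RNA, a log2 change of 1.03 (SE 0.06, adjusted p = 2.77e-20).

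The 14 genes of the destruction complex and the Dishevelled family were all tested, and 0 changed by more than a fold of 2. In 4sU RNA 3 (21.4%) were higher and 0 lower, and in total RNA 0 were higher and 4 (28.6%) lower. In total over 4sU 0 were higher and 4 (28.6%) lower, against 8.6% of all genes, with a median log2 change of -0.26 against -0.09 for all genes. The 4 were *Apc*, *Tnks*, *Fbxw11* and *Dvl2*, named after their values were seen, at -0.35, -0.37, -0.34 and -0.41 on the log2 scale. *Ctnnb1*, whose protein is the substrate of this complex, was at -0.30, and a link between these RNA values was not tested.

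Antagonists and feedback inhibitors had 18 genes, with 11 tested. In 4sU RNA 2 (18.2%) were higher and 2 (18.2%) lower, in total RNA 3 (27.3%) and 3 (27.3%), and in total over 4sU 0 and 2 (18.2%). *Dact2*, a Dishevelled-binding regulator, rose from 62.2 ± 6.40 to 131 ± 3.67 TMM-scaled CPM in 4sU RNA, a log2 change of 1.08 (SE 0.09, adjusted p = 4.66e-16). *Apcdd1*, a membrane inhibitor of Wnt, rose by 1.08 in total RNA (SE 0.14, adjusted p = 2.70e-09). *Nkd2*, the relative of *Nkd1*, fell by 1.35 in 4sU RNA (SE 0.35, adjusted p = 0.00137).

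The secreted inhibitor *Sfrp4* fell by 1.16 in total RNA (SE 0.21, adjusted p = 4.98e-06) and by 1.06 in total over 4sU (SE 0.28, adjusted p = 0.0083). The inhibitor *Dkk1* was called higher in total RNA (adjusted p = 0.00515) on 1 count in wild-type and 19 in *Ddx6* KO libraries. The ratio of these counts, each over its library totals, was 13.6, with a 95% interval from 2.16 to 565 that covers counting error only.

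Of 12 nuclear cofactors 11 were tested, and 3 (27.3%) were higher and 4 (36.4%) lower in 4sU RNA, 4 (36.4%) and 4 (36.4%) in total RNA, and 1 (9.09%) and 0 in total over 4sU, with 0 past a fold of 2. Of 7 other target genes 4 were tested. In 4sU RNA 0 were higher and 1 (25%) lower, in total RNA 1 (25%) and 1 (25%), and in total over 4sU 2 (50%) and 0. The 5 pluripotency genes that TCF7L1 is known to bind and hold down in ESCs were all tested. In 4sU RNA 3 (60%) were higher and 0 lower, in total RNA 3 (60%) and 1 (20%), and in total over 4sU 1 (20%) and 2 (40%). The 3 higher in both were *Esrrb*, *Nanog* and *Klf2*, with log2 fold changes in total RNA of 0.22, 0.59 and 0.72, and *Nanog* lies on chromosome 6. *Tfcp2l1* was the lower gene in total RNA, at -0.51. These 4 were named after their values were seen.

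**Figure D4:**
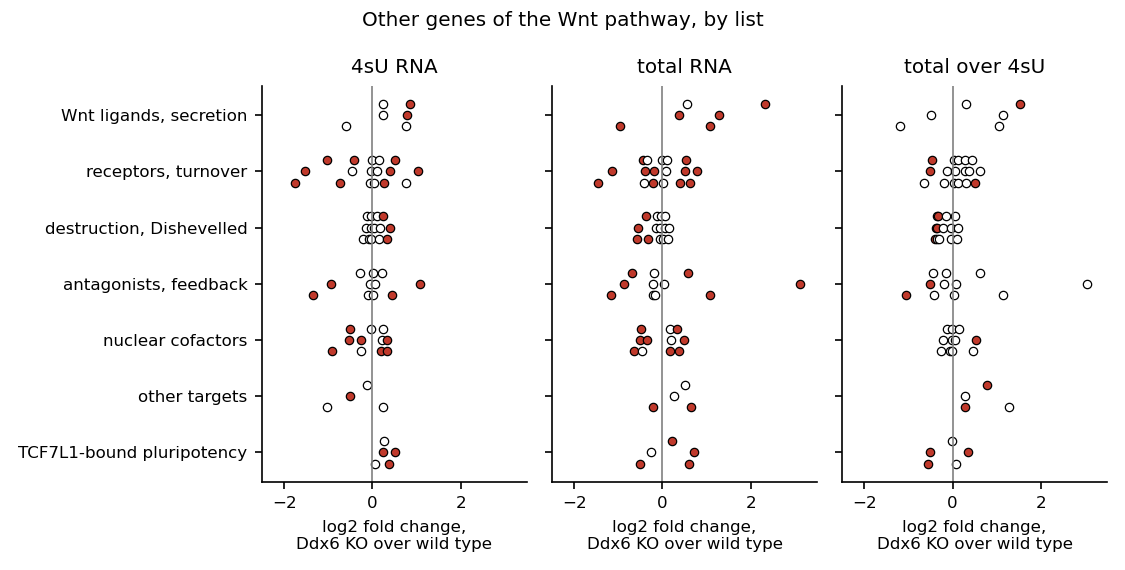
Log2 fold change of *Ddx6* KO over wild-type (x axes) for the 68 tested genes of the 7 pathway lists (rows) in 4sU RNA, total RNA and total over 4sU, with 1 point per gene and an adjusted p under 0.05 filled. Points of most lists fall on both sides of 0, and the destruction and Dishevelled genes stay closest to 0 in 4sU RNA.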

How the data were processed

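The authors trimmed reads with cutadapt 1.14, aligned them to mm10 with STAR 2.5.3a and deposited raw counts per gene from featureCounts 1.5.3, counted by strand over exons of Gencode vM14 without rRNA genes. Each 4sU library had a single-end run and a paired-end re-sequencing run, which were summed. Counts were tested with edgeR 4.0.16 (R 4.3.3), a robust quasi-likelihood fit with TMM factors over 14 libraries, for 14518 genes at 3 CPM in at least 3 libraries. Groups were genotype by kind of RNA, and clone by kind of RNA for the clones. SE is the absolute log2 fold change over the square root of F, an approximation that is unstable for changes near 0. For the *Cdx1* ratio it was 0.41 in the main fit and 0.23 with RLE size factors. Alternatives included DESeq2 1.42.0 and limma-voom (limma 3.58.1), other scalings, filters and runs, and omission of each culture. The 92 spike-in rows held 0 counts. No member shared exon bases with another gene on its strand. Nothing says that same-genotype cultures were separate derivations, so p-values reflect the spread between libraries of these cultures. In the main fit that spread was estimated over both kinds of RNA. Both libraries of a culture, and the *Ddx6* KO cultures of a clone, were taken there as independent. Depth sets precision, since 3 counts equal 0.407 to 0.524 CPM in total RNA and 0.84 to 1.23 CPM in 4sU RNA. Libraries of 1 culture share an extract, and their deviations from the group means correlated at r = 0.0035 to 0.13 across genes. Simulated data were used to test recovery of fold changes planted alike in 4sU and total RNA, so recovery of a change in the ratio was not tested. Genes without a planted change had equal means in both genotypes there, so the effect of scaling on small calls was not tested either.

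The members and lists were chosen with earlier results of these data known. Named genes were all members and, per list and comparison, up to 3 genes with the largest absolute log2 fold change over 1 among those called. Genes outside this rule, in the destruction complex and pluripotency lists and among the markers, were named after their values were seen.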

Additional observations from a re-analysis of the deposited data

Results flagged for a closer look

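Among 27 sets of 4 *Ddx6* KO values (9 members in 4sU RNA, total RNA and their ratio), 1 held a culture set apart from the others by Dixon's test, about as many as chance gives at 1 in 20. *Ctnnb1* in 4sU RNA was at 389 TMM-scaled CPM in clone 2 culture 1, against 355 to 361 in the other 3 *Ddx6* KO cultures. Without that culture the 4sU RNA call of *Ctnnb1* was lost, at a log2 fold change of 0.14 (edgeR, adjusted p = 0.10).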

How the results depend on the processing

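In 4sU RNA 4 members were called, and in the alternatives 2 to 4. The count of 4 with library totals held *Tcf7l1* in place of *Axin2*. With 3 CPM required in every library, 2 were called among the 4 members left to test, and 2 when a fold change over 2 was also required. In total RNA 5 were called. This became 6 with limma-voom and with the re-sequencing run, 3 with DESeq2, RLE factors, library totals, TMM within each kind of RNA, TMM without chromosome 6, or the replicate number as a block, 1 with 3 CPM in every library and 1 with the fold rule, and it ranged from 3 to 5 when 1 culture was left out. In total over 4sU 1 was called, and 0 with TMM within each kind of RNA, with clone 1 only and with the fold rule, and between 0 and 1 when 1 culture was left out. In the block alternative the members called stayed at 4 in 4sU RNA and 1 in the ratio. Same-numbered cultures of the genotypes deviated together at r of only -0.038 to 0.089, so the number was not taken as a pairing. The block by culture kept *Ctnnb1* as the 1 call in the ratio. For single members, 405 of 476 log2 values kept direction and call, 40 lost a call, 5 gained one and 26 turned in sign; of these only *Ctnnb1* in total RNA, at 0.010 with library totals, had been called, and the cause was not tested. In 4sU RNA the sign turned for *Nkd1*, at 0.039 with library totals and 0.084 with clone 2 only, for *Tcf7*, at 0.095 with library totals and 0.21 with the re-sequencing run, and for *Cdx1*, at 0.017 with that run. In total RNA it turned for *Axin2*, at 0.027 with library totals, and *Nkd1*, at -0.066 with clone 2 only. In the ratio it turned for *Sp5* at -0.14 and *Nkd1* at -0.15 with clone 2 only, *Tcf7* at 0.082 with the single-end run and *Tcf7l2* at 0.076 with the other run. The *Cdx1* ratio, close to 0, turned to 0.0013 with DESeq2, 0.039 with limma-voom, 0.0023 with RLE, 0.035 with TMM within each kind of RNA, 0.19 with the single-end run and 0.14 with clone 1 only. When 1 culture was left out, *Nkd1* ranged from -0.40 to 0.025 in 4sU RNA and from -0.0044 to 0.63 in the ratio, and the ratio ranged from -0.030 to 0.27 for *Sp5*, from -0.68 to 0.0036 for *Tcf7l2* and from -0.19 to 0.11 for *Cdx1*. TMM scaling moved 9 of 36 mean levels by more than 1 SD. Counts of 5 to 37 limit *Sp5*, *Nkd1* and *Cdx1* in 4sU RNA.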

Other observations

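The tested genes whose log2 TMM-scaled CPM followed that of *Axin2* most closely over the 14 libraries were *Gm10416*, *Tmem11* and *Slc38a2*. Pearson's r was 0.992, 0.991 and 0.989. The libraries fall into 4sU and total RNA, so that these values mostly describe how far a gene lies apart between the kinds of RNA, and they carry no test. On the same measure r was 0.92 for *Tcf7l1*, 0.76 for *Tcf7l2*, 0.46 for *Sp5*, 0.38 for *Nkd1*, -0.14 for *Tcf7*, -0.81 for *Cdx1* and -0.95 for *Ctnnb1*.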
